A study of Homo sapiens with 2 samples.

Results

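Chromatin remodellers are protein machines that use ATP to slide, evict or exchange nucleosomes, the units of DNA wrapped round histones. They fall into families by their ATPase: SWI/SNF, which opens chromatin at enhancers and promoters, ISWI, which spaces nucleosomes, CHD, which includes the ATPases of the repressive NuRD complex, and INO80 with its SWR1-type relatives, which exchange histone variants. Many subunits have paralogs that take the same place in the complex, so that cells build different versions of it, and SWI/SNF genes are among the chromatin genes most often mutated in cancer, gastric cancer included. The 50 genes described here encode subunits of these complexes, together with ATRX, DAXX and HELLS. They were listed by name from the families, with no threshold on their measured values, at a time when earlier results of these data were known. All 50 had a row among the 16021 of the table, and all 50 were past the filter on low values, a mean of at least 1 FPKM across the 2 libraries, which 11413 rows passed.

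The RNA came from HGC-27, a human gastric cancer line, transduced with lentivirus for an shRNA against DDX5 or for a non-targeting control. The DDX5 protein, an RNA helicase of the DEAD-box family, also acts as a coregulator of transcription. Both cultures received puromycin after 48 hours and were collected 1 week later, and each gave 1 library. With 1 library per condition no test was made, the spread between cultures is not known, and every difference below is a difference between these 2 libraries. In bulk RNA, fewer cells of a kind and less RNA per cell cannot be told apart.

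The targeted mRNA, DDX5 (Entrez gene 1655), was at 50.78 FPKM in the DDX5 shRNA library, against 170.5 FPKM in the non-targeting library, in the direction of the labels. Levels are FPKM, fragment counts scaled by transcript length and library depth, as the authors deposited them, and can be compared between genes since they are per length. Log2 ratios are of FPKM + 1, DDX5 shRNA over non-targeting shRNA. The labels call the cells gastric adenocarcinoma. The epithelial genes CDH1, EPCAM and KRT18 were at 0.07, 0.39 and 0.16 FPKM in the DDX5 shRNA library and at 0.36, 0.04 and 0.1 FPKM in the non-targeting library, low in both. KRT8 stood at 1.31 FPKM with DDX5 shRNA and 5.24 FPKM with non-targeting shRNA. The mesenchymal gene VIM stood at 1270.59 FPKM with DDX5 shRNA and 1583.62 FPKM with non-targeting shRNA, FN1 stood at 5.99 FPKM with DDX5 shRNA and 4.76 FPKM with non-targeting shRNA, and CDH2 was listed at 0 with DDX5 shRNA and at 0.07 FPKM with non-targeting shRNA. The collagen genes COL1A1 (260.5 FPKM with DDX5 shRNA, 285.04 FPKM with non-targeting shRNA) and COL3A1 (943.99 FPKM with DDX5 shRNA, 482.44 FPKM with non-targeting shRNA), fixed as fibroblast markers, were well above 0 in both libraries, and their part in the results was not tested. No row used here matched the symbols KRT19, PTPRC, PECAM1 and ALB, so no value is given for these genes. Depth was estimated from the steps between low FPKM values at about 1.45e+07 fragments for the DDX5 shRNA library and 1.48e+07 for the non-targeting library. At that depth DPF1 rested on about 66 fragments and SMARCA1 on about 130 in the library where each was lower, and the other 48 members on about 440 or more.

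The mRNAs of the 50 members were on the whole somewhat lower in the DDX5 shRNA library, and each differed by less than 2-fold. This did not extend to the 64 further genes of these complexes and related ATPases described below. Their median log2 ratio was -0.01, with 32 below 0 and 32 above. Of the 50 members, 36 had a log2 ratio below 0, which is 72.0%, where 47.8% of all genes past the filter did. The median was -0.19 for the members and 0.02 for all genes. At least 1.5-fold lower on FPKM + 1 were 7 members, or 14.0%, against 10.1% of all genes, and they were SMARCA4, SMARCA5, BAZ1A, BPTF, CHD1, CHD8 and SRCAP. At least 1.5-fold higher were 2 members, SMARCA2 and SMARCD2, or 4.0%, against 13.1% of all genes. On FPKM + 5 in place of FPKM + 1, 6 of the 7 lower members and 1 of the 2 higher ones were no longer past this limit. SMARCA4 was then the lower one, or 2.0% against 5.46% of all genes, and SMARCD2 the higher one, or 2.0% against 6.63%. None was at least 2-fold lower, where 2.26% of all genes were, and none at least 2-fold higher, where 4.19% were. The lowest and highest members were SMARCA4 at -0.74 and SMARCD2 at 0.64. Just inside the 1.5-fold limit lay SMARCA2, at 1.5-fold higher on FPKM + 1, and SMARCA5, CHD8 and BAZ1A, each at 1.53-fold lower. Just outside it lay DAXX, at 1.49-fold higher, and ACTL6A, at 1.47-fold lower.

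The total FPKM of the libraries differed, at 594756.9 for DDX5 shRNA and 549128.67 for non-targeting shRNA. Rescaling both to the same total gave a median of -0.30 for the members and -0.08 for all genes. Below 0 were then 41 members, against 56.8% of all genes. At this scaling 9 of the 50 members were at least 1.5-fold lower, against 14.3% of all genes, and none was higher, against 10.1%. The 36 members below 0 stayed below 0 under the same total, under centring on the median of all genes and under centring on a trimmed mean. Of the 14 above 0, 9 stayed above (SMARCA2, SMARCD2, DPF2, BRD9, PBRM1, CHD2, CHD6, GATAD2B and DAXX), while SMARCD3, SMARCE1, SS18, SMARCA1 and CHD3 turned to slightly below 0 at the same total. SMARCD2 was still at least 1.5-fold higher after either centring, and SMARCA2 was not.

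**Figure D1:**
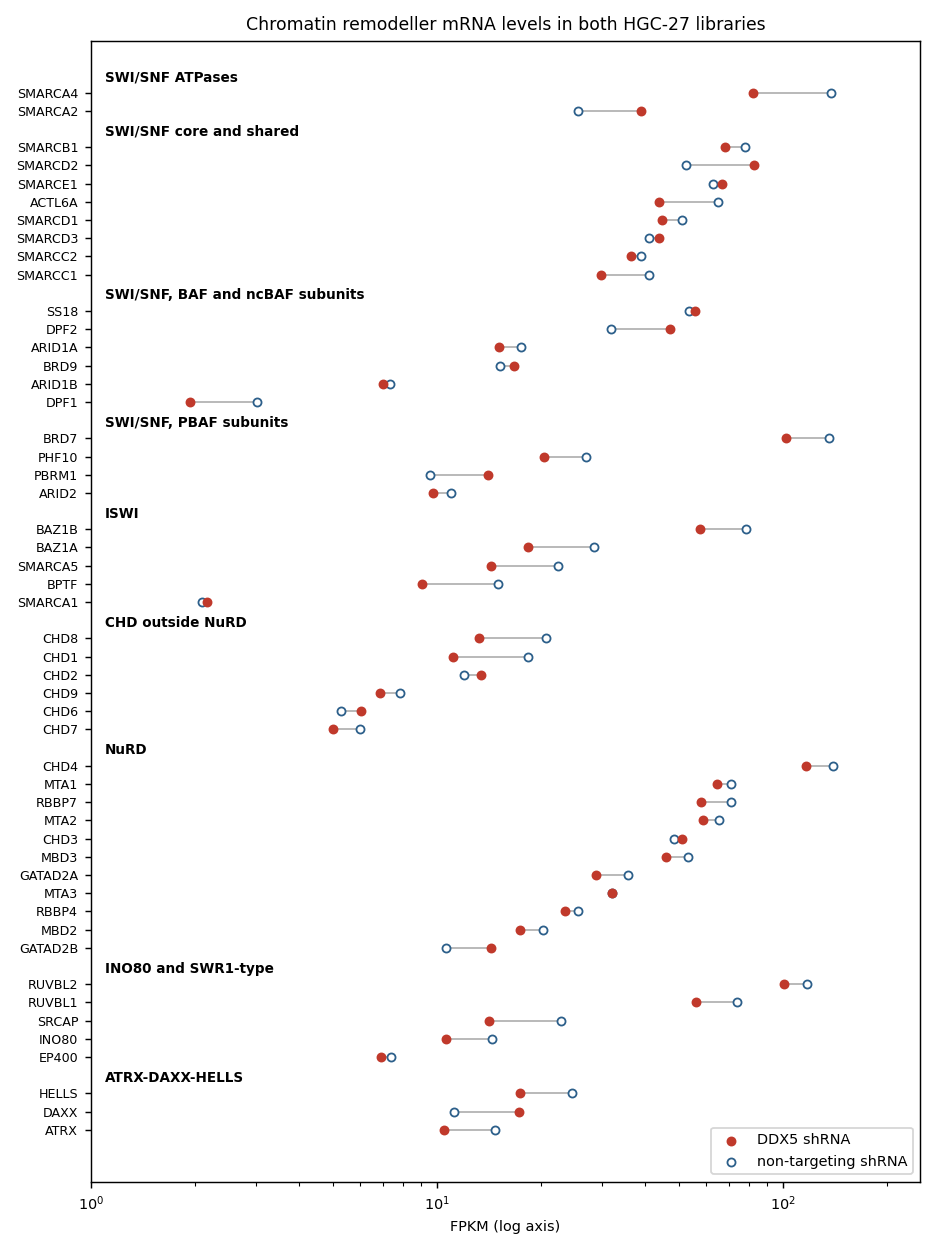
FPKM of each of the 50 members (log axis), by complex, in the DDX5 shRNA library (filled) and the non-targeting library (open), 1 library each. The longest lines to the left of the open points belong to SMARCA4, BPTF, CHD1 and SRCAP, and filled points lie well to the right for SMARCA2, SMARCD2, DPF2, PBRM1, GATAD2B and DAXX.

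In SWI/SNF the catalytic subunit is either SMARCA4 (BRG1) or SMARCA2 (BRM), and these paralogs differed in opposite directions. SMARCA4 stood at 82.26 FPKM in the DDX5 shRNA library, against 138.18 FPKM in the non-targeting library, 1.68-fold lower. SMARCA2 stood at 38.9 FPKM in the DDX5 shRNA library, against 25.57 FPKM in the non-targeting library, 1.52-fold higher. SMARCA4 was the more abundant in both libraries. It made up 67.9% of the summed FPKM of the pair in the DDX5 shRNA library and 84.4% in the non-targeting library, and SMARCA2 32.1% with DDX5 shRNA and 15.6% with non-targeting shRNA. The sum of the pair was 121.16 FPKM in the DDX5 shRNA library and 163.75 FPKM in the non-targeting library. A ratio within a library is not touched by rescaling the libraries.

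RefSeq gives 2 start windows for SMARCA4 and 4 for SMARCA2, and the deposited value of a gene does not separate transcripts by their start. The first window of each is shown because these ATPases share a place in the complex and differed in opposite directions, and an inner SMARCA2 window because RefSeq places a further start far downstream. The window of SMARCA5, the main ISWI ATPase here, and that of HELLS are added for comparison. Each runs from 250 bases before to 50 bases after the start, on the plus strand of GRCh38.p14, a build other than the hg19 of the submitters' processing notes. They lie at chr19:10960780-10961079, chr9:2015097-2015396, chr9:2157412-2157711, chr4:143513452-143513751 and chr10:94545538-94545837, in the order printed. Capitals mark exact matches, on either strand, of the GC box GGGCGG, the CCAAT box CCAAT, the TATA box TATAAA and the E2F-type motifs TTTGGCGC and TTTCCCGC, none of which overlap one another in these windows.
SMARCA4, first window: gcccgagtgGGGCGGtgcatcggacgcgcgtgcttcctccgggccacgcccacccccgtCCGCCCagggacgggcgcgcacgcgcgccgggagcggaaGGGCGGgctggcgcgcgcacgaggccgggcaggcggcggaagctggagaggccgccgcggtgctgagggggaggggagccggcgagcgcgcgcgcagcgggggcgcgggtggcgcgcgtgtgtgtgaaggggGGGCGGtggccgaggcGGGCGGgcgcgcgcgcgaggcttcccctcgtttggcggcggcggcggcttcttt
SMARCA2, first window: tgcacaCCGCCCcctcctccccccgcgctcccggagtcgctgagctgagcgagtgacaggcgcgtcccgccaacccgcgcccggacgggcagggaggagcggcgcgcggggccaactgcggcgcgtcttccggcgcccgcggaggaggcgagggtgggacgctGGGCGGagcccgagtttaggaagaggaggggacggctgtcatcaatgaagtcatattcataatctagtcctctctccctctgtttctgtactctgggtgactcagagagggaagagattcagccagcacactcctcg
SMARCA2, inner window: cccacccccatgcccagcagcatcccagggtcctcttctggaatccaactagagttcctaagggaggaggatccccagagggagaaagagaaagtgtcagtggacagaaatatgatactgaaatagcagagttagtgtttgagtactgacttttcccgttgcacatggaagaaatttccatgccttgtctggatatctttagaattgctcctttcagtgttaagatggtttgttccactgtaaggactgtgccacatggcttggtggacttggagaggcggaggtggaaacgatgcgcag
SMARCA5: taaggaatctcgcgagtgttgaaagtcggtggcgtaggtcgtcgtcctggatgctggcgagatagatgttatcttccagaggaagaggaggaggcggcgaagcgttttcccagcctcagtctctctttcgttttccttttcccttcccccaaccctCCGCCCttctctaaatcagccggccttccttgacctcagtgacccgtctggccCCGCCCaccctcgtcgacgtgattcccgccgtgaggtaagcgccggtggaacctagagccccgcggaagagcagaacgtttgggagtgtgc
HELLS: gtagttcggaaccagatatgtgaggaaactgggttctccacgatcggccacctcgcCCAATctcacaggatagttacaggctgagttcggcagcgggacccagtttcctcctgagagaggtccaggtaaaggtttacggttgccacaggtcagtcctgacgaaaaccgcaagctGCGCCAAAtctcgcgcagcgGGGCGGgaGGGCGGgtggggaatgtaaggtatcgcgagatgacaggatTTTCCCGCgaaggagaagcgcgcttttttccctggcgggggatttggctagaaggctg

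The first SMARCA4 window held 5 GC boxes in 81.3% G and C, and the first SMARCA2 window 2 in 66.7% G and C. The inner SMARCA2 window held none of these motifs and was 48.7% G and C. RefSeq promoter windows matched 40 of the 50 members, with 62 windows. Those of ACTL6A, ARID2, ATRX, BAZ1A, BPTF, CHD6, CHD7, DAXX, SMARCC1 and SMARCC2 were not matched. The GC box occurred in 45 of the 62 windows, or 72.6%, against 45.0% of all 35116 windows and 66.9% of the windows of genes past the filter. The CCAAT box occurred in 38.7% of member windows, against 35.1% for genes past the filter. The TATA box occurred in 2 windows, of RUVBL1 and SMARCA2, or 3.23%, against 5.9%. That SMARCA2 window is not among those shown. The E-box CACGTG occurred in 3 windows, or 4.84%, against 9.51%. The half-site TGACG occurred in 33.9%, against 32.4%, and the YY1-type motif AAGATGGC in 8.06%, against 5.03%. The ATF4-type element TGATGNAA was in 0 of the 62 windows, against 1.94%. A match, or its lack, describes these letters in these windows.

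The core and shared subunits of SWI/SNF were mostly within 1.5-fold. SMARCB1, the core subunit lost in rhabdoid tumours, stood at 68.16 FPKM in the DDX5 shRNA library and 78.05 FPKM in the non-targeting library. Of the scaffold paralogs, SMARCC1 stood at 29.77 FPKM with DDX5 shRNA and 40.94 FPKM with non-targeting shRNA and SMARCC2 at 36.41 FPKM with DDX5 shRNA and 38.9 FPKM with non-targeting shRNA. SMARCC2 was thus 55.0% of their sum in the DDX5 shRNA library and 48.7% in the non-targeting library. ACTL6A, the actin-related subunit, stood at 43.81 FPKM in the DDX5 shRNA library and 65.01 FPKM in the non-targeting library, 1.48-fold lower on FPKM. SMARCE1, an HMG-domain subunit, differed little, at 66.55 FPKM with DDX5 shRNA and 62.92 FPKM with non-targeting shRNA, and its sign turned when the libraries were set to the same total.

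The SMARCD paralogs (BAF60), which link the complex to transcription factors, did not move together. SMARCD2 stood at 82.39 FPKM in the DDX5 shRNA library, against 52.59 FPKM in the non-targeting library, 1.57-fold higher. SMARCD1 stood at 44.88 FPKM with DDX5 shRNA and 51.21 FPKM with non-targeting shRNA and SMARCD3 at 43.77 FPKM with DDX5 shRNA and 41.13 FPKM with non-targeting shRNA, both within 1.5-fold. SMARCD2 made up 48.2% of the summed FPKM of these genes in the DDX5 shRNA library and 36.3% in the non-targeting library. Among the 50 members it ranked 4 by level in the DDX5 shRNA library and 15 in the non-targeting library, the largest rise in rank of any member. The summed FPKM of the SMARCD genes was 171.04 in the DDX5 shRNA library and 144.93 in the non-targeting library.

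Subunits that mark the versions of SWI/SNF also went both ways. In canonical BAF, the DNA-binding paralogs ARID1A and ARID1B stood at 15.17 and 7.01 FPKM in the DDX5 shRNA library and at 17.47 and 7.31 FPKM in the non-targeting library, and ARID1A held 68.4% of their sum with DDX5 shRNA and 70.5% with non-targeting shRNA. DPF2, a histone reader with paired PHD fingers, stood at 47.22 FPKM in the DDX5 shRNA library, against 31.96 FPKM in the non-targeting library, 1.48-fold higher on FPKM. Its paralog DPF1, known from neuronal forms of the complex, was low, at 1.94 FPKM with DDX5 shRNA and 3.03 FPKM with non-targeting shRNA. SS18, the subunit fused in synovial sarcoma, stood at 55.64 FPKM with DDX5 shRNA and 53.52 FPKM with non-targeting shRNA, and BRD9, the bromodomain subunit of non-canonical BAF, at 16.69 FPKM with DDX5 shRNA and 15.22 FPKM with non-targeting shRNA. In PBAF, PBRM1, which carries a row of bromodomains, stood at 14.04 FPKM in the DDX5 shRNA library, against 9.59 FPKM in the non-targeting library, 1.46-fold higher on FPKM. Its partners ARID2 (9.78 FPKM with DDX5 shRNA, 10.97 FPKM with non-targeting shRNA), PHF10 (20.46 FPKM with DDX5 shRNA, 26.97 FPKM with non-targeting shRNA) and BRD7 (101.97 FPKM with DDX5 shRNA, 136.2 FPKM with non-targeting shRNA) were lower in the DDX5 shRNA library. Over the 20 SWI/SNF members the median log2 ratio was -0.12, with 12 below 0, or 60.0%, against 47.8% of all genes. The 9 further SWI/SNF genes past the filter had a median of 0.10, with 2 below 0, or 22.2%, and 7 above. Of those 7, BCL7C and BICRAL turned to slightly below 0 at the same total. These 9 were set beside the members after their values were seen.

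ISWI showed the lowest median of the 6 groups, -0.61 over 5 members. Of these 5, 80.0% were below 0, against 47.8% of all genes past the filter. At least 1.5-fold lower on FPKM + 1 were 60.0% of them, against 10.1% of all genes. The 6 further ISWI genes listed, which are BAZ2A, BAZ2B, CECR2, RSF1, POLE3 and CHRAC1, had a median of 0.06, with 2 below 0 (POLE3 at -0.73 and RSF1 at -0.18) and 4 above. Of those 4, BAZ2A and CHRAC1 turned to slightly below 0 at the same total. These 6 were set beside the members after their values were seen. SMARCA5 (SNF2H), its main ATPase here, stood at 14.38 FPKM in the DDX5 shRNA library, against 22.47 FPKM in the non-targeting library. BAZ1A (ACF1), which joins it in the nucleosome-spacing complexes ACF and CHRAC, stood at 18.32 FPKM in the DDX5 shRNA library, against 28.56 FPKM in the non-targeting library. BPTF, the large subunit of NURF that reads methylated histone tails, stood at 9.07 FPKM in the DDX5 shRNA library, against 14.99 FPKM in the non-targeting library. These 3 were 1.56-fold, 1.56-fold and 1.65-fold lower on FPKM. BAZ1B, the Williams syndrome transcription factor and partner of SMARCA5 in WICH, stood at 57.5 FPKM with DDX5 shRNA and 78.08 FPKM with non-targeting shRNA, 1.36-fold lower. The paralogous ATPase SMARCA1 (SNF2L) was at 2.16 FPKM with DDX5 shRNA and 2.1 FPKM with non-targeting shRNA. SMARCA5 therefore held 86.9% of the summed FPKM of both ATPases in the DDX5 shRNA library and 91.5% in the non-targeting library.

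**Figure D2:**
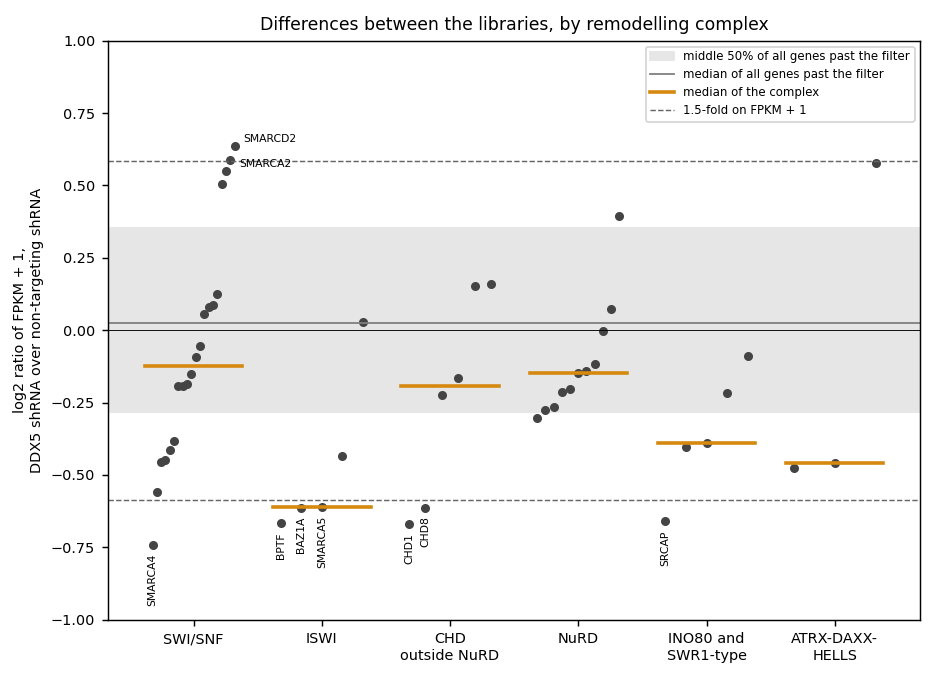
Log2 ratio of FPKM + 1, DDX5 shRNA over non-targeting shRNA, for each member (points, named where at least 1.5-fold apart) by complex, with the median of the complex (orange), the 1.5-fold limits (dashed) and the median and middle 50% of all genes past the filter (grey, from -0.28 to 0.35). ISWI members other than SMARCA1 lie below the grey band, NuRD members are mostly inside it, and SWI/SNF members spread from -0.74 to 0.64.

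Of the 6 CHD ATPases outside NuRD, CHD1 and CHD8 were at least 1.5-fold lower, or 33.3%, against 10.1% of all genes past the filter. CHD1, which acts at genes under active transcription, stood at 11.15 FPKM in the DDX5 shRNA library, against 18.31 FPKM in the non-targeting library. CHD8, a repressor of beta-catenin targets, stood at 13.21 FPKM in the DDX5 shRNA library, against 20.73 FPKM in the non-targeting library. CHD2, the closest paralog of CHD1, went the other way in a small measure, at 13.46 FPKM with DDX5 shRNA and 12 FPKM with non-targeting shRNA. CHD2 was 54.7% of the summed FPKM of CHD1 and CHD2 in the DDX5 shRNA library and 39.6% in the non-targeting library. The levels of CHD6 (6.03 FPKM with DDX5 shRNA, 5.29 FPKM with non-targeting shRNA), CHD7 (5 FPKM with DDX5 shRNA, 6 FPKM with non-targeting shRNA) and CHD9 (6.87 FPKM with DDX5 shRNA, 7.82 FPKM with non-targeting shRNA) lay closer together. CHD7 is the gene of CHARGE syndrome. Within CHD6 to CHD9, CHD8 held 42.5% of the FPKM in the DDX5 shRNA library and 52.0% in the non-targeting library. The median of the 6 genes was -0.19.

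NuRD couples an ATPase to histone deacetylation, and its members differed little. CHD4, its main ATPase and the most abundant of the 50 members in both libraries, stood at 116.45 FPKM in the DDX5 shRNA library and 140.04 FPKM in the non-targeting library, and its paralog CHD3 at 51.05 FPKM with DDX5 shRNA and 48.47 FPKM with non-targeting shRNA. Of the 11 members 9 were below 0, or 81.8%, against 47.8% of all genes past the filter. Their median was -0.15, and none was 1.5-fold apart. The scaffold genes MTA1, MTA2 and MTA3 stood at 64.41, 58.98 and 32.14 FPKM in the DDX5 shRNA library and at 71.07, 65.44 and 32.18 FPKM in the non-targeting library. MBD2, which binds methylated DNA, stood at 17.36 FPKM with DDX5 shRNA and 20.27 FPKM with non-targeting shRNA, and MBD3 at 46.06 FPKM with DDX5 shRNA and 53.11 FPKM with non-targeting shRNA, and MBD3 was 72.6% of their sum with DDX5 shRNA and 72.4% with non-targeting shRNA. The histone chaperones RBBP4 (23.55 FPKM with DDX5 shRNA, 25.63 FPKM with non-targeting shRNA) and RBBP7 (58.18 FPKM with DDX5 shRNA, 70.66 FPKM with non-targeting shRNA) also serve other complexes. The bridging subunits were the exception in share: GATAD2B stood at 14.33 FPKM in the DDX5 shRNA library, against 10.65 FPKM in the non-targeting library, and GATAD2A at 28.81 FPKM with DDX5 shRNA and 35.76 FPKM with non-targeting shRNA. GATAD2B made up 33.2% of their sum in the DDX5 shRNA library and 22.9% in the non-targeting library.

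All 5 members of the INO80 and SWR1-type group were below 0, with a median of -0.39. Of all genes past the filter 47.8% were below 0. The 11 further INO80 genes listed had a median of -0.07, with 6 below 0 and 5 above. For the 15 further genes of the SRCAP and TIP60 complexes the median was -0.02, with 8 below 0 and 7 above. Both lists were set beside the members after their values were seen. SRCAP, the ATPase that deposits the histone variant H2A.Z, stood at 14.12 FPKM in the DDX5 shRNA library, against 22.9 FPKM in the non-targeting library, 1.62-fold lower. INO80 stood at 10.66 FPKM in the DDX5 shRNA library and 14.43 FPKM in the non-targeting library. EP400, the ATPase of the TIP60 acetyltransferase complex, differed less, at 6.89 FPKM with DDX5 shRNA and 7.39 FPKM with non-targeting shRNA. The AAA+ ATPases RUVBL1 (56.15 FPKM with DDX5 shRNA, 73.83 FPKM with non-targeting shRNA) and RUVBL2 (100.92 FPKM with DDX5 shRNA, 117.5 FPKM with non-targeting shRNA), which form a ring shared by these complexes, were 1.31-fold and 1.16-fold lower.

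ATRX and DAXX work together to place a variant histone H3 in heterochromatin, and their mRNAs differed in opposite directions. ATRX, the ATPase, stood at 10.46 FPKM in the DDX5 shRNA library, against 14.76 FPKM in the non-targeting library. DAXX, the histone chaperone, stood at 17.28 FPKM in the DDX5 shRNA library, against 11.25 FPKM in the non-targeting library, 1.54-fold higher on FPKM and just under the limit on FPKM + 1. HELLS, an ATPase needed for DNA methylation of repeats, stood at 17.39 FPKM in the DDX5 shRNA library, against 24.57 FPKM in the non-targeting library. The 3 partner genes listed for this group differed in direction. CDCA7, the partner of HELLS, stood at 27.61 FPKM with DDX5 shRNA and 53 FPKM with non-targeting shRNA, with a log2 ratio of -0.92. Of the genes for the H3 variant that ATRX and DAXX place, H3-3A stood at 446.05 FPKM with DDX5 shRNA and 534.84 FPKM with non-targeting shRNA, with a log2 ratio of -0.26, and H3-3B at 156.72 FPKM with DDX5 shRNA and 111.91 FPKM with non-targeting shRNA, with a log2 ratio of 0.48. These 3 were not 2-fold apart and were named after their values were seen. HELLS was the member whose window, shown above, held both E2F-type motifs: TTTGGCGC occurred in 1 of the 62 member windows and TTTCCCGC in 2 (HELLS and BRD7), against 1.02% and 2.45% of the windows of genes past the filter.

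Set side by side, the 17 ATPases of the SNF2 type had a median log2 ratio of -0.26, with 12 (70.6%) below 0. At least 1.5-fold lower were 5 of them, or 29.4% (SMARCA4, SMARCA5, CHD1, CHD8 and SRCAP), and 1 was higher, or 5.88% (SMARCA2). The other 33 members had a median of -0.19, with 24 (72.7%) below 0. Of these, 2 were at least 1.5-fold lower, or 6.06% (BAZ1A and BPTF), and 1 higher, or 3.03% (SMARCD2). Over all genes past the filter 47.8% were below 0, 10.1% at least 1.5-fold lower and 13.1% at least 1.5-fold higher. The 14 further SNF2-family ATPases listed had a median of -0.10, with 57.1% below 0. Of them 14.3% were at least 1.5-fold lower and 7.14% higher. This list was set beside the members after its values were seen. On FPKM + 5, SMARCA4 was the only one of the 17 still past the 1.5-fold limit. The summed FPKM of the 17 ATPases was 420.44 in the DDX5 shRNA library and 531.03 in the non-targeting library, a ratio of 0.792. For all 50 members it was 1729.16 in the DDX5 shRNA library and 1983 in the non-targeting library, a ratio of 0.872. The ratio of sums ran from 0.694 for ISWI to 0.912 for SWI/SNF.

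**Figure D3:**
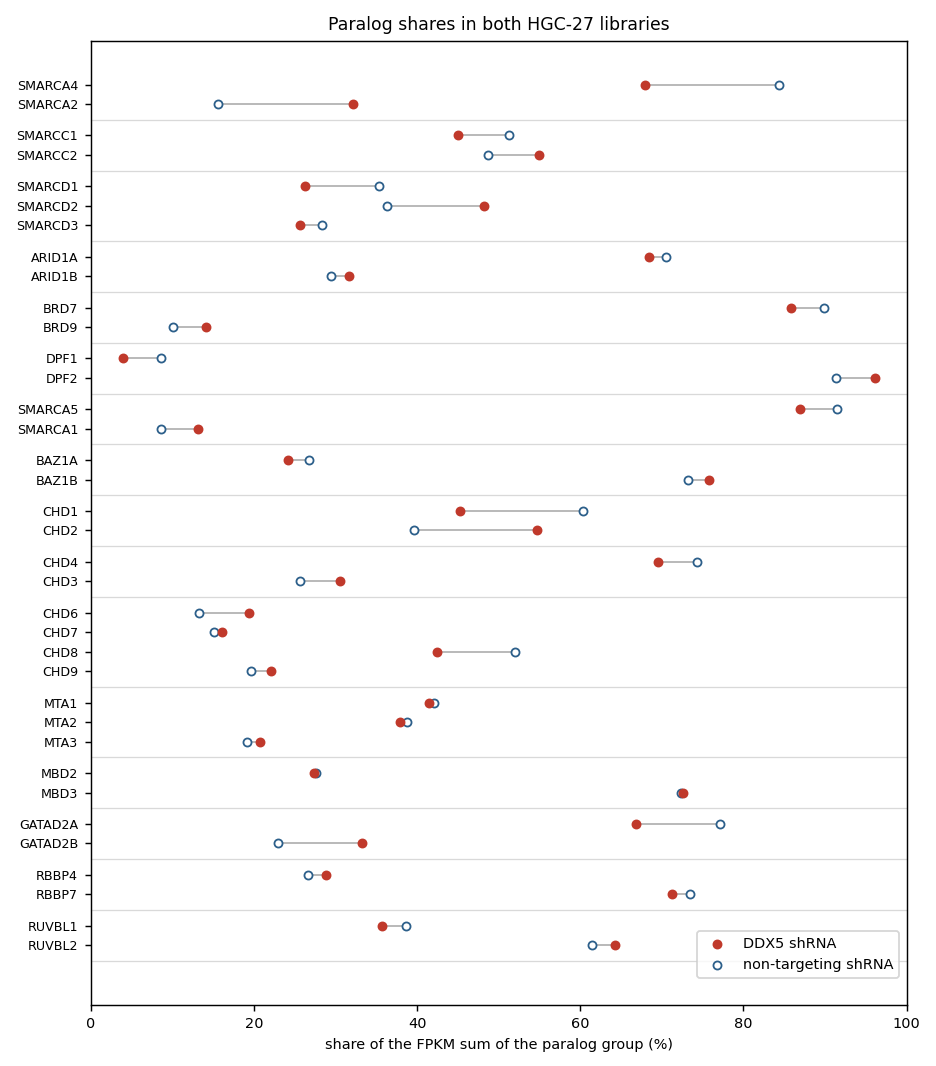
Share of each gene in the summed FPKM of its paralog group (%), in the DDX5 shRNA library (filled) and the non-targeting library (open), for 16 groups. The widest gaps are those of SMARCA4 and SMARCA2, at 16.5 percentage points, and of CHD1 and CHD2, at 15.1 points, whereas MBD2 and MBD3 lie almost on top of each other.

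The members are long transcripts, with a median of 5921 bases for the longest protein-coding form, against 3450 bases over the 11172 genes past the filter with a length. Members below 0 were as frequent among long as among short transcripts. The 25 members of 6000 bases or more had a median log2 ratio of -0.19 and 18 below 0, and so did the 25 shorter ones. Over all genes the medians were -0.01 for 2091 transcripts of 6000 bases or more and 0.03 for 9081 shorter ones. Below 0 were 72.0% of the members in each length class, against 50.6% of all the longer transcripts and 47.3% of all the shorter ones. By level, the 28 members with a mean of at least 20 FPKM had a median of -0.20, against -0.03 for all genes at that level, and the 22 below it -0.18, against 0.05.

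**Figure D4:**
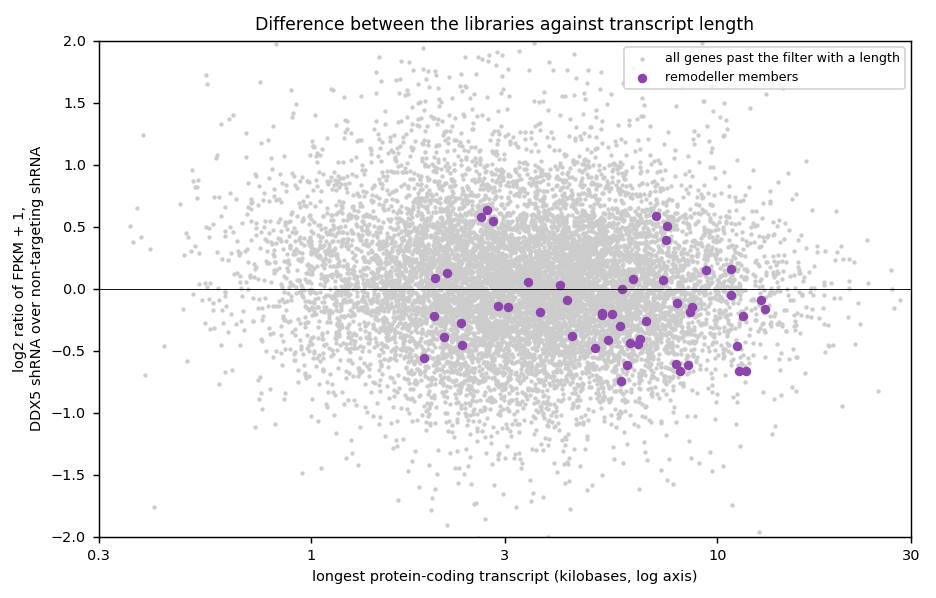
Log2 ratio of FPKM + 1, DDX5 shRNA over non-targeting shRNA, against the longest protein-coding transcript (kilobases, log axis) for the 50 members (purple) and all genes past the filter with a length (grey). Members lie between -0.74 and 0.64 over the whole range of their lengths, and 61 of the 11172 genes fall outside the axes.

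Some member transcripts share sequence with other genes of the table. Same-strand sharing in windows of 50 bases was at most 7.39%, for MTA1 with TEX22 as the leading partner. On the opposite strand, 40.0% of the BRD7 windows also occur in other listed genes, led by ADCY7 (18.36 FPKM with DDX5 shRNA, 19.47 FPKM with non-targeting shRNA). The share was 28.8% for RUVBL1, led by EEFSEC (11.64 FPKM with DDX5 shRNA, 11.85 FPKM with non-targeting shRNA). It was 20.3% for RBBP4, led by SYNC (3.97 FPKM with DDX5 shRNA, 5.09 FPKM with non-targeting shRNA), and 11.1% for SMARCC2, led by MYL6 (577.15 FPKM with DDX5 shRNA, 542.93 FPKM with non-targeting shRNA). The strand setting of the counting is not given in the sources used here, so the values of these 4 genes are uncertain to that extent. BRD9, RBBP7 and MTA1 had 6.64%, 5.68% and 7.39% of windows in listed genes, with TRIP13 (32.35 FPKM with DDX5 shRNA, 59.57 FPKM with non-targeting shRNA) opposite BRD9. None of the 9 members at least 1.5-fold apart had more than 1% of windows in another listed gene on either strand. GENCODE v29 also holds models with no row in the table, and 9 further members had 10% or more of their windows in such a model. On the same strand the share was 86.9% for CHD4, 85.3% for SRCAP, 60.3% for SMARCE1, 15.6% for DAXX, 15.3% for CHD2 and 13.3% for MBD3. On the opposite strand it was 54.7% for SMARCB1, led by DERL3, 13.5% for SMARCA5 and 10.1% for BAZ1A. Whether the authors' annotation held these models is not given in the sources used here, so the values of these 9 are uncertain in the same way.

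A further 66 genes of the same complexes and of related SNF2-type ATPases were listed, of which 64 were past the filter. Their median was -0.01, with 32 below 0 and 32 above. At least 1.5-fold lower were 6, or 9.38%, against 10.1% of all genes past the filter. At least 1.5-fold higher were 3, or 4.69%, against 13.1%. The lowest was ERCC6L, a helicase of mitotic chromosomes, at 3.5 FPKM in the DDX5 shRNA library, against 14.41 FPKM in the non-targeting library. ACTB, the cytoplasmic beta-actin that is also a SWI/SNF subunit, stood at 755.65 FPKM in the DDX5 shRNA library, against 1667.07 FPKM in the non-targeting library. ACTR5, an INO80 subunit, stood at 2.27 FPKM with DDX5 shRNA and 6.24 FPKM with non-targeting shRNA, and CECR2, a partner of ISWI ATPases, at 2.68 FPKM with DDX5 shRNA and 0.71 FPKM with non-targeting shRNA, these last chosen after their values were seen. They were the 4 genes of the list at least 2-fold apart on FPKM + 1, with 3 lower (4.69%) and 1 higher (1.56%). Of all genes past the filter 2.26% were at least 2-fold lower and 4.19% higher. The deacetylases of NuRD, HDAC1 (54.59 FPKM with DDX5 shRNA, 57.15 FPKM with non-targeting shRNA) and HDAC2 (20.75 FPKM with DDX5 shRNA, 21.03 FPKM with non-targeting shRNA), and the TIP60 acetyltransferase gene KAT5 (16.58 FPKM with DDX5 shRNA, 16.88 FPKM with non-targeting shRNA), also chosen after their values were seen, were almost level between the libraries.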

How the data were processed

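One RNA-seq library was made for each shRNA. The authors deposited 1 table of FPKM, per the file headers, keyed by Entrez gene numbers. HISAT, Bowtie2, RSEM 1.2.8 and the build hg19 are listed in the submitters' processing notes, without roles or order. The annotation, strand setting and filters were not given in the labels. RSEM divides shared reads by estimation, so overlapping genes can exchange values, and FPKM depends on the composition of each library.

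Columns were assigned by the sample titles. RefSeq names (GRCh38.p14) matched 15289 of 16021 rows. Ratios used FPKM + 1, which understates differences of low genes. The members and lists were chosen with earlier results of these data known. Values are given for all 50 members, beyond the planned rule of those at least 1.5-fold apart or ATPases. Further genes of the complexes were named where at a mean of at least 5 FPKM and 2-fold apart. Any further gene named outside this rule is marked in the text. Lengths and shared windows (50 bases, every 10) came from GENCODE v29. Depth was estimated from low values of genes with 1 transcript: at the best step 59.8% of 169 genes (DDX5 shRNA) and 62.7% of 153 (non-targeting) lay within 0.15 of a whole fragment, where 30% would for a step fixed beforehand, so fragment numbers are approximate. Python 3.11.15, numpy 2.4.6, pandas 2.3.3 and matplotlib 3.10.9 were used. The ratio was tried on simulated data with calls scored at 2-fold only, so the 1.5-fold limit was not covered. Other settings tried were pseudocounts of 0.1 and 5, no filter, a minimum mean of 5 FPKM, and 3 scalings.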

Additional observations from a re-analysis of the deposited data

How the results depend on the processing

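No paired analysis was possible because each condition has 1 library and no test was made. No member at least 1.5-fold apart changed direction. A change of pseudocount or filter cannot turn the sign of a ratio, so only the 3 scalings could change a direction. Of the members within 1.5-fold, 5 changed sign with both libraries at the same total. They were SMARCD3 at -0.02, SMARCE1 at -0.03, SS18 at -0.06, SMARCA1 at -0.05 and CHD3 at -0.04. None did under centring on the median or on a trimmed mean. Of 176 recomputed summary values 16 moved by more than their spread or by over 1.5 times in a count. Many of the rest could not move. Every member passes the filter, so dropping it left the member values as they were. Paralog shares were recomputed only under other filters, which changed no group that was kept. The spread of a median was taken between its genes, which are not replicates. With both libraries at the same total, the median log2 ratio was -0.30 for all members, -0.23 for SWI/SNF, -0.72 for ISWI, -0.26 for NuRD, -0.57 for ATRX, DAXX and HELLS, and -0.11 for the further genes. At the same total 0 members were at least 1.5-fold higher, against 10.1% of all genes, and 9 were lower, against 14.3%. This scaling moves every gene down, with the median of all genes at -0.08 in place of 0.02. Centring on the median or on a trimmed mean left 1 member at least 1.5-fold higher (SMARCD2), against about 12% of all genes under either. At least 1.5-fold lower were 7 members after the first and 8 after the second, against about 11% of all genes under either. These centrings gave -0.48 and -0.49 for ATRX, DAXX and HELLS. That group, with 3 genes, had -0.49 with a pseudocount of 0.1 and -0.35 with a pseudocount of 5. A pseudocount of 5 shrinks ratios by construction: it left 1 member at least 1.5-fold lower (SMARCA4) and 1 higher (SMARCD2), where 5.46% of all genes were lower and 6.63% higher, and ISWI at -0.50. The number of members below 0 was 35 to 41 over the 7 alternatives, at 35 with a mean of 5 FPKM or more, where SMARCA1 and DPF1 drop out and their pairs give no share. Without SMARCA1 the median of the ATPases was -0.33. None of the members was 2-fold apart under any of these alternatives.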
